A study of Mus musculus with 2 samples.

Results

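Cytosolic RNA sensors and the Z-nucleic-acid sensor ZBP1 were examined in leukocytes of B16-F10 melanomas grown in mice with or without induced loss of the exonuclease Trex1. The set holds 7 genes of the 32432 in the count tables, found by their symbols: the RIG-I-like receptor genes Ddx58 (RIG-I), Ifih1 (MDA5) and Dhx58 (LGP2), the related helicase gene Ddx60, the adaptor gene Mavs, Zbp1, and Eif2ak2 (PKR). The genes were listed by known function, with earlier results of these data known. Their raw UMI counts were read in all 8 hashtagged samples and described across cell types named by marker gates.

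RIG-I and MDA5 are helicases that bind double-stranded or otherwise unusual RNA in the cytosol and pass the signal to MAVS on the outer mitochondrial membrane, from where kinases activate the factors that induce type I interferon. LGP2 lacks the signalling domain of the other receptors and modulates them, and DDX60 has been described as a cofactor of RIG-I. ZBP1 binds nucleic acids in the Z form and engages RIPK3 in a cell death pathway, and PKR, once bound to double-stranded RNA, phosphorylates a translation initiation factor and slows protein synthesis. Most of these genes are themselves induced by interferon, whereas Mavs is generally regarded as expressed without induction. TREX1 degrades DNA in the cytosol, and none of the 7 products is the DNA sensor that its substrate engages.

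Male mice, 8 to 12 weeks old, were used in both groups, and all had a Cre recombinase inducible by tamoxifen at 1 copy of the ubiquitously active Rosa26 locus (R26CreERT2-ki/wt). The Trex1 iKO group had the genotype Trex1 fl/fl, with both Trex1 alleles conditional, and the Trex1 control group had the genotype Trex1 wt/fl, so that the control group carried 1 conditional allele and was not wild type. All animals were treated alike. They received 1000 cells of B16-F10, a mouse melanoma line, with Matrigel in the skin of both legs. Tamoxifen followed from day 5 (1 mg on each of 3 days), and day 14 was the day of harvest. The tumour cells were not derived from these mice, so Cre acted in host cells only. The conditional allele of the control group was exposed to tamoxifen-induced Cre as well. CD45-positive living cells were selected on beads and by sorting, marked with TotalSeqA hashtag antibodies and sequenced from transcript 3' ends with 10x Genomics v3 chemistry. Each genotype was 1 pool of 4 hashtagged samples, numbered 1 to 4 here, and the effects of genotype and of pool cannot be told apart. The labels do not say that a hashtagged sample is 1 mouse, and the p-values therefore measure the spread between these samples only.

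The samples held 17111065 to 96457227 UMIs. The median per barcode was 12535.5 to 14221 UMIs in iKO and 5794 to 11490 in control samples. Of 23731 barcodes, 22051 were kept, and no barcode was shared between samples of 1 pool (45 were shared between pools). Trex1 itself had 0 UMIs in iKO and 2 in control cells, so its loss could not be checked from these counts. A cell was given a type where at least 3 markers of 1 of 9 marker panels were detected with a clear margin over the other panels; 14.6% of kept cells stayed ungated. The labels describe the cells as lymphocytes, but 37.5% passed the monocyte/macrophage gate. Outside their own gates, monocyte/macrophage markers summed to 128 to 243 CPM in iKO and 226 to 242 CPM in control CD8 T cells, and to 293 to 1189 CPM in iKO and 432 to 535 CPM in control B cells. Within the iKO group, samples 1 and 2 stood apart from samples 3 and 4. The chi-square per degree of freedom of their counts over genes was 23.7 between samples 1 and 2 and 7.62 between 3 and 4. Across those pairs it was 94.9 to 214. The control group was also uneven, at 20.5 to 96.0 between its samples and 51.4 to 96.0 for pairs with control sample 4. The measure was not adjusted for depth. Zbp1 levels of samples 1 and 2 were the highest of the group in monocytes/macrophages, CD4 T cells, Treg, mature DC, neutrophils and cDC1. They were also the highest, by less, in CD8 T cells, but not in B cells. Counts of called genes are therefore also given without those samples, an alternative chosen after the values were seen.

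Promoter sequences are shown for the members because most of them differed between the genotypes together and 1 did not. RefSeq promoter windows (GRCm38.p6, 250 bases before to 50 bases after the annotated start; the count tables use another build) were found for 5 of the 7 members. Dhx58 and Zbp1 had no entry in the table used. The windows were searched on both strands for the core of the interferon-stimulated response element (GAAA, any 2 bases, GAAA), which overlaps no other motif searched. The 120 bases from 70 before to 50 after each start are given below on the gene's own strand, with the element core in capitals.
Ddx58, chr4:40239776-40239895, minus strand: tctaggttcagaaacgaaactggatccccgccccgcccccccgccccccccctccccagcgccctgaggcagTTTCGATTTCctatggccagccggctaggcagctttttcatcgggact
Ifih1, chr2:62646206-62646325, minus strand: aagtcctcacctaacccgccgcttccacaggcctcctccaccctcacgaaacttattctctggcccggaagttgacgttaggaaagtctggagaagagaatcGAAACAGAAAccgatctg
Ddx60, chr8:61928017-61928136, plus strand: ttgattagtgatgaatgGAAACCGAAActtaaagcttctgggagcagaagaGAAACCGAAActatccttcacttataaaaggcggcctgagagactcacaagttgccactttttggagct
Eif2ak2, chr17:78882523-78882642, minus strand: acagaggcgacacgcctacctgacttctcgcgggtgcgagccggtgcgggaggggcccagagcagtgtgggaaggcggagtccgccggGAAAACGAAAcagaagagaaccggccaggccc
Mavs, chr2:131233993-131234112, plus strand: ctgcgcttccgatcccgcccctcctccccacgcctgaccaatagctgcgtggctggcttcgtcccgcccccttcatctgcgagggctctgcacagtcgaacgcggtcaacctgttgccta

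The core occurred in 4 of the 5 windows, in Ddx58, Ifih1, Ddx60 and Eif2ak2. Over all 32851 windows of 300 bases in the table, 3.44% held it. Ddx60 held 2 copies with the same letters, GAAACCGAAA, at positions -53 to -44 and -19 to -10 from the start, and 0.225% of all windows held 2 or more. The Ddx58 match lay on the opposite strand at positions 3 to 12, and those of Eif2ak2 and Ifih1 lay at positions 19 to 28 and 33 to 42, inside the transcribed part. The Mavs window held no match to these letters. A second motif, the gamma-activated site core TTCNNNGAA, occurred in 8.3% of all windows and among the 5 only in Eif2ak2, at positions -178 to -170. These are matches of letters in an annotated window, not measured binding sites.

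**Figure D1:**
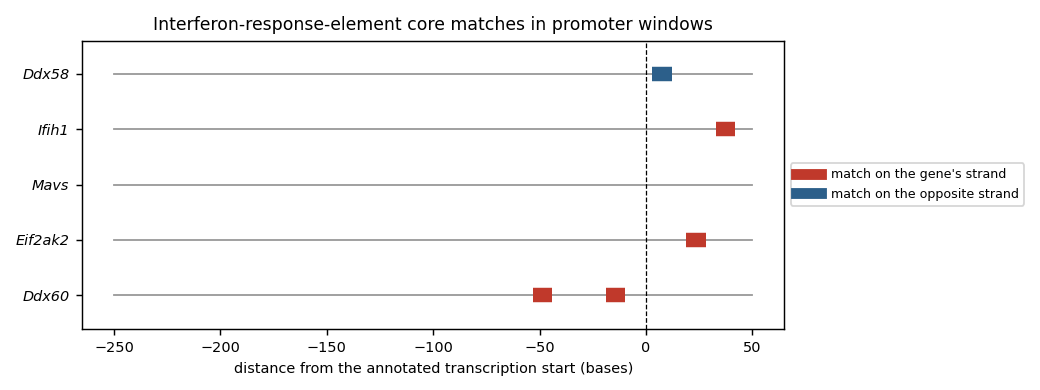
Positions of the interferon-response-element core in the promoter windows of the 5 members with an entry, as distance in bases from the annotated start (dashed line). Red blocks are matches on the gene's strand, the blue block is on the opposite strand, and the Mavs window has none; Ddx60 has 2.

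Levels are given as CPM, the UMIs of a gene summed over the cells of a type in a sample and scaled to the same total for every profile, with the mean ± SD over samples. Types were placed in order where at least 3 samples of a group held at least 20 cells. In control samples Ddx58 was highest in CD4 T cells (46.8 ± 2.12 CPM, n = 4), followed by neutrophils (40.3 ± 8.67), CD8 T cells (36.0 ± 2.98), B cells (35.5 ± 8.41), Treg (33.7 ± 14.0, n = 3), cDC2 (31.0 ± 5.90, n = 3), monocytes/macrophages (28.0 ± 7.04) and mature DC (12.8 ± 4.35). Every neighbouring pair in that order overlapped in its sample values. In iKO samples the order began with neutrophils (116 ± 27.9) and monocytes/macrophages (96.4 ± 27.2). It ended with mature DC (38.8 ± 24.1), cDC1 (13.2 ± 3.06) and pDC (3.93 ± 0.231, n = 3), and the last pair of steps were the gaps without overlap. Each of those pDC samples held 1 UMI of Ddx58, so their small SD reflects profile totals. The step from cDC1 to pDC was therefore not resolved beyond counting error. RIG-I transcripts were thus scarce in cDC1 and pDC of these tumours: the control cDC1 samples, 2 in number, had 1.16 and 0 CPM, the latter with an upper limit of 4.53 CPM for a count of 0.

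Ifih1 ranked differently. In control samples it was highest in cDC2 (40.6 ± 19.5 CPM, n = 3), monocytes/macrophages (40.3 ± 11.5) and mature DC (37.9 ± 5.77), near 22.0 to 23.2 in Treg, CD4 T cells and neutrophils, and lower in CD8 T cells (12.1 ± 3.62), whose samples did not overlap those of Treg above them. B cells were lowest, at 7.36 ± 6.84. In iKO samples monocytes/macrophages (143 ± 62.6) and mature DC (87.3 ± 38.8) led, and B cells were again last (12.6 ± 8.68), without overlap with CD8 T cells above them. Among iKO dendritic cells, pDC had 53.1 ± 31.8 CPM (n = 3) of Ifih1 and cDC1 43.8 ± 20.3.

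Dhx58 was highest in monocytes/macrophages in both groups, at 29.4 ± 4.55 CPM in control and 85.9 ± 26.7 in iKO samples. Control cDC2 followed at 24.4 ± 7.61 (n = 3), and the other control types lay between 7.27 ± 1.72 in CD8 T cells and 12.4 ± 7.76 in Treg, with overlap between all neighbours. In iKO samples only pDC, at 10.4 ± 6.09 (n = 3), stood below the type above it without overlap. These pDC values rest on 1 to 4 UMIs per sample.

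Ddx60 was highest in neutrophils in both groups. Control neutrophils had 59.5 ± 31.0 CPM, against 24.4 ± 8.55 in CD4 T cells, 10.9 ± 3.81 in monocytes/macrophages and 5.74 ± 9.38 in B cells, and neutrophils and CD4 T cells overlapped. In iKO samples neutrophils reached 206 ± 30.4, above every CD4 T cell sample (75.9 ± 34.7), and monocytes/macrophages were at 47.1 ± 15.5. Again cDC1 (5.65 ± 2.68) and pDC (2.45 ± 4.24, n = 3) were lowest in iKO samples, and 2 of those pDC samples had 0 UMIs, which allows up to 12.2 CPM.

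Mavs was low in all types. Control means ran from 9.92 ± 3.89 CPM in CD4 T cells to 1.10 ± 1.10 in neutrophils, and iKO means from 10.2 ± 4.22 in B cells to 0.851 ± 0.993 in neutrophils. All neighbours in both orders overlapped, and neutrophils, with 3 samples at 0 UMIs, came last in both groups. Those samples at 0 UMIs allow up to 3.71 to 19.1 CPM.

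Zbp1 led in monocytes/macrophages in both groups (131 ± 32.7 CPM in control, 471 ± 220 in iKO). Control Treg followed at 107 ± 30.5 (n = 3), then CD4 T cells (79.9 ± 40.7), neutrophils (64.6 ± 29.6), CD8 T cells (62.0 ± 7.55), mature DC (43.1 ± 18.9), cDC2 (41.9 ± 26.2, n = 3) and B cells (14.6 ± 7.101). In iKO samples neutrophils stood second (344 ± 133), B cells had risen to 123 ± 29.4, and pDC were last at 47.7 ± 20.0 (n = 3), the one step in either order without overlap.

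Eif2ak2 ran in control types from 53.5 ± 16.6 CPM in Treg (n = 3) and 46.4 ± 8.67 in monocytes/macrophages down to 22.1 ± 5.72 in neutrophils and 13.4 ± 11.1 in B cells. In iKO samples monocytes/macrophages (108 ± 25.8), neutrophils (82.4 ± 10.7) and cDC1 (74.8 ± 14.0) led, and pDC were last (40.8 ± 10.7, n = 3). All neighbours overlapped in both groups.

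**Figure D2:**
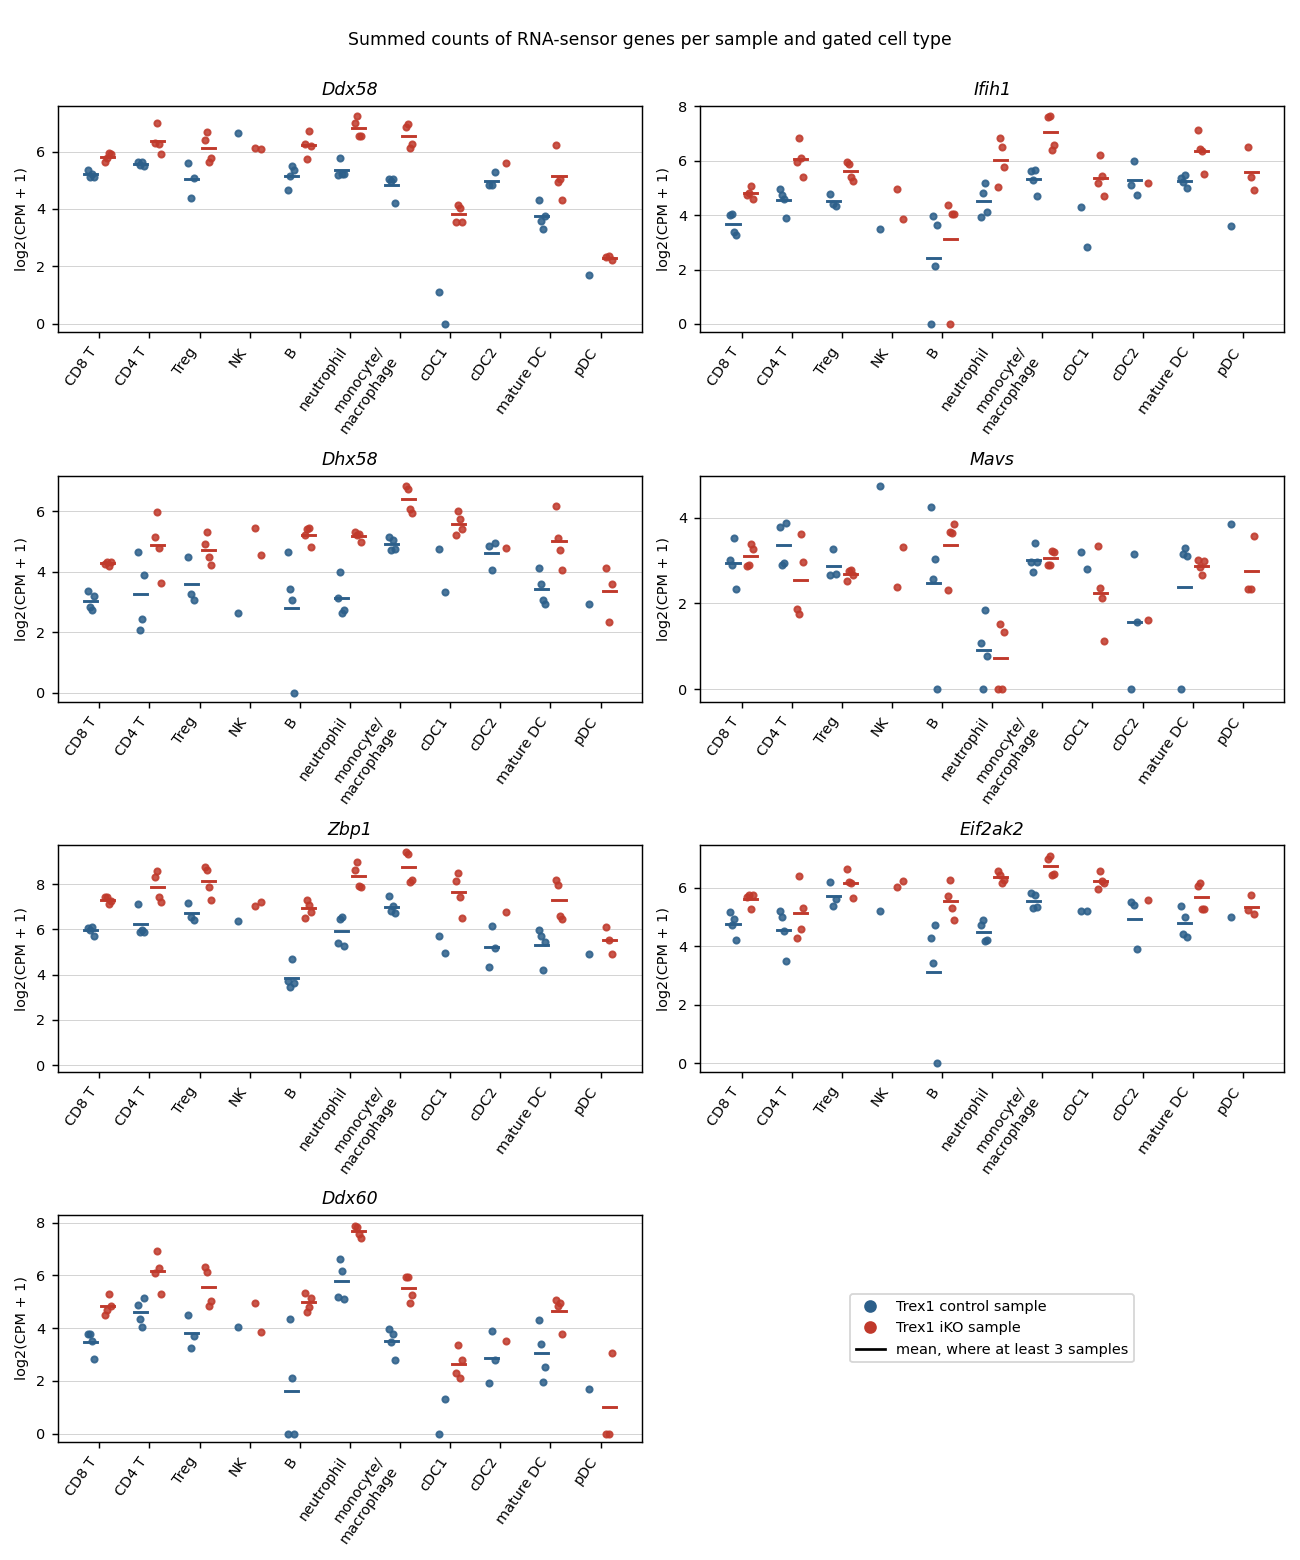
Level of each member per hashtagged sample and gated cell type, as log2(CPM + 1) of the summed UMIs (log scale, 1 panel per gene, with its own axis). Blue points are control and red points iKO samples, and bars are means where at least 3 samples were measured. The members other than Mavs lie higher in iKO samples in most types, and Mavs does not separate the groups in any type with 3 samples per group.

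The genotype comparison asked how these sensors differed between the Trex1 iKO and Trex1 control groups within each leukocyte type. It was made with edgeR's quasi-likelihood test on the summed counts, adjusted over all genes of a type (Benjamini-Hochberg), and a gene is called here at an adjusted p under 0.05. Fold changes use TMM scaling and so differ from ratios of the CPM printed, most in neutrophils, where the median gene's CPM was 0.23 log2 units lower in iKO. Zbp1 was called higher in iKO in 7 and Ddx58 in 4 of the 7 types in which they passed the filter on low counts. Of 6 types with a test, Ifih1 and Ddx60 were called in 5 and Dhx58 and Eif2ak2 in 3. Mavs was called in none of its 2. In these types 0.588% to 5.84% of all genes tested were called higher. A member high in iKO only can pass the low-count filter through those samples, as Zbp1 and Ddx58 did in B cells. Dhx58 did so in neutrophils, Ddx60 and the uncalled Dhx58 in Treg, and Ifih1 and Ddx60 in CD4 T cells. The uncalled Ddx58 and Dhx58 in mature DC did so too. Counts of members called are therefore not independent of the filter. No member was called lower in any type.

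In monocytes/macrophages 6 of 7 members rose, where 5.84% of the 11670 genes tested were called higher and 10.8% in either direction. Zbp1 had 684, 638, 275 and 288 CPM in iKO samples 1 to 4 and 178, 113, 129 and 105 CPM in control samples 1 to 4. Every iKO sample was above every control sample, with samples 1 and 2 far above samples 3 and 4. Zbp1 rose 3.59-fold (log2 1.84 ± 0.35 SE, adjusted p = 0.0158). Ifih1 had 195, 199, 82.4 and 95.4 CPM in iKO and 48.3, 38.7, 49.6 and 24.8 CPM in control samples, with the same split among the iKO samples and no overlap. It rose 3.56-fold (log2 1.83 ± 0.35, adjusted p = 0.0162). Ddx58 had 116, 123, 69.4 and 76.8 CPM in iKO and 31.8, 30.3, 32.4 and 17.5 CPM in control samples. The RIG-I transcript, whose control mean was below those of control CD4 T, CD8 T and B cells, rose 3.45-fold (log2 1.79 ± 0.26, adjusted p = 0.0075).

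The other receptor-related genes moved with them in monocytes/macrophages. Dhx58 had 113, 105, 66.2 and 59.8 CPM against 34.6, 25.4, 31.8 and 25.8 CPM and rose 2.90-fold (log2 1.54 ± 0.24, adjusted p = 0.00917). Ddx60 had 59.8, 60.6, 30.1 and 37.7 CPM against 14.7, 10.2, 12.8 and 5.90 CPM and rose 4.396-fold (log2 2.14 ± 0.33, adjusted p = 0.00896). Eif2ak2 had 124, 136, 84.7 and 87.7 CPM against 55.2, 38.5, 52.3 and 39.3 CPM and rose 2.31-fold (log2 1.21 ± 0.21, adjusted p = 0.0109). For each of these genes the lowest iKO sample was above the highest control sample, as it was for 13.7% of all genes tested in this type. Mavs was the exception: its 6.43, 6.42, 8.39 and 8.19 CPM in iKO and 6.84, 5.66, 9.63 and 6.79 CPM in control samples overlapped, with a log2 difference of -0.02 ± 0.15 (edgeR adjusted p = 0.942). Without iKO samples 1 and 2 the log2 values of the 6 genes fell to between 0.80 and 1.58 and 5 were called, with Zbp1 at 1.00 (edgeR adjusted p = 0.0417) and Ifih1 lost at 1.06 (adjusted p = 0.0643). Leaving out control sample 2 or 4 took Ifih1 (adjusted p up to 0.0544) and Zbp1 (up to 0.0553) just past the threshold.

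In CD8 T cells 6 of 7 members rose as well, against 1.91% of 9566 genes called higher and 3.15% in either direction. Here iKO samples 1 and 2 were close to samples 3 and 4. Zbp1 had 174, 171, 140 and 150 CPM in iKO and 66.7, 62.7, 67.4 and 51.1 CPM in control samples, a 2.59-fold rise without overlap (log2 1.37 ± 0.12, adjusted p = 0.000491). Dhx58 had 18.0, 19.1, 17.3 and 19.1 CPM against 9.29, 6.05, 5.65 and 8.07 CPM and rose 2.51-fold (log2 1.33 ± 0.17, adjusted p = 0.00269). Ddx60 had 21.4, 24.6, 38.6 and 27.4 CPM against 12.7, 12.9, 10.5 and 6.05 CPM and rose 2.47-fold (log2 1.31 ± 0.23, adjusted p = 0.0121). Groups did not overlap for any of the 6 genes, as for 5.45% of all genes. The other 3 rose less: Ifih1 by log2 1.11 ± 0.19 (adjusted p = 0.0110), Eif2ak2 by 0.85 ± 0.18 (adjusted p = 0.0341) and Ddx58 by 0.62 ± 0.11 (adjusted p = 0.0135), from 36.0 ± 2.98 to 55.7 ± 5.79 CPM.

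Mavs in CD8 T cells had 6.33, 6.44, 9.51 and 8.64 CPM in iKO and 7.12, 6.42, 10.5 and 4.04 CPM in control samples, with overlap and a log2 difference of 0.03 ± 0.26 (edgeR adjusted p = 0.975). The CD8 T calls of Ddx58 ended without control sample 2 or 3, that of Ddx60 without control sample 3, and that of Eif2ak2 without any of iKO samples 1, 2 and 4 and control samples 2, 3 and 4 (adjusted p up to 0.117). Without iKO samples 1 and 2 together, 5 members were called and Eif2ak2 was lost (adjusted p = 0.116). With cells thinned to 3000 UMIs only Zbp1 was called, at fewer counts. Monocyte/macrophage markers in CD8 T profiles summed to 1.32% to 1.94% of their level in monocytes/macrophages in iKO samples, and that share of the macrophage Zbp1 level is 4.54 to 9.24 CPM of the 140 to 174 CPM measured.

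In neutrophils, of the 7 members 6 passed the low-count filter and all of those 6 were called, against 3.13% of 4919 genes called higher and 3.58% in either direction; Mavs, with 0 to 1.88 CPM in iKO and 0 to 2.60 CPM in control samples, did not pass it. Zbp1 had 394, 509, 240 and 232 CPM in iKO and 40.9, 86.7, 93.6 and 37.5 CPM in control samples, and rose 6.34-fold (log2 2.66 ± 0.33, adjusted p = 0.000588). Ddx60 had 235, 227, 190 and 171 CPM against 35.3, 97.8, 71.5 and 33.2 CPM and rose 4.18-fold (log2 2.06 ± 0.30, adjusted p = 0.00173). Eif2ak2 had 95.4, 86.3, 71.3 and 76.4 CPM against 25.4, 28.5, 16.9 and 17.7 CPM and rose 4.35-fold (log2 2.12 ± 0.24, adjusted p = 0.000513). In none of these 3 did the groups overlap, against 3.37% of all genes without overlap.

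Among the receptors in neutrophils, Dhx58 rose 5.04-fold (log2 2.33 ± 0.34, adjusted p = 0.00184), from 8.36 ± 4.47 to 35.3 ± 3.30 CPM. Dhx58 passed the low-count filter only through its iKO samples, so its call is not independent of that filter. Ddx58 rose 3.39-fold (log2 1.76 ± 0.22, adjusted p = 0.000684), from 40.3 ± 8.67 to 116 ± 27.9 CPM. Ifih1 was called (4.05-fold, log2 2.02 ± 0.37, adjusted p = 0.00709) although iKO sample 1, at 31.8 CPM, lay below control sample 3, at 35.1 CPM. No single sample's removal ended a neutrophil call, nor did removal of iKO samples 1 and 2 together. Neutrophils were few in iKO samples (30 to 95 cells each, 0.791% to 4.398% of kept cells, against 7.40% to 13.9% in control samples). The 6 macrophage markers summed to 33.8% to 52.9% of their macrophage level in iKO neutrophils, which themselves express some of them, such as Lyz2 and Cd14. That share of the macrophage level is 97.5 to 362 of the 232 to 509 CPM of Zbp1 measured and 12.3 to 31.7 of the 171 to 235 CPM of Ddx60. For Dhx58 (20.2 to 59.6 of 30.6 to 38.2 CPM) and Ifih1 (32.2 to 103 of 31.8 to 113 CPM) it reached or passed the measured level in some samples. With Csf1r and Adgre1 only, a choice made after the values were seen, the share was 9.31% to 16.7%. It then came to 32.1 to 77.1 CPM of Zbp1, 7.72 to 12.7 CPM of Dhx58 and 9.62 to 22.0 CPM of Ifih1. The part of macrophage RNA in the neutrophil values was not tested.

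In B cells the low-count filter left only Ddx58 and Zbp1, and both rose, against 2.02% of 3126 genes called higher and 3.01% in either direction. Both passed that filter through their iKO samples only. The share of members called is therefore partly fixed by the filter. Zbp1 had 91.1, 158, 135 and 109 CPM in iKO and 12.2, 9.81, 25.2 and 11.4 CPM in control samples, a 5.73-fold rise without overlap (log2 2.52 ± 0.27, adjusted p = 2.2e-06), as 4.22% of all genes were without overlap. Ddx58 had 75.3, 52.8, 104 and 72.9 CPM against 24.3, 34.3, 43.7 and 39.9 CPM and rose 1.95-fold (log2 0.96 ± 0.24, adjusted p = 0.0239). Its call ended without iKO sample 1, 3 or 4 or control sample 2 (adjusted p up to 0.145) and with DESeq2 (adjusted p = 0.155). Of the members below the filter, Dhx58 (26.9 to 42.3 against 0 to 24.3 CPM), Eif2ak2 (28.8 to 76.3 against 0 to 25.7 CPM) and Ddx60 (23.5 to 39.6 against 0 to 19.6 CPM) did not overlap, while Ifih1 and Mavs did. The 4.22% covers genes that passed the filter, and a share for genes below it was not computed. Control samples at 0 UMIs for these genes allow up to 17.1 to 18.2 CPM. B cells of iKO sample 1 held 12.2% of the macrophage marker level, and that share of the macrophage Zbp1 level, 83.6 CPM, compares with the 91.1 CPM measured there. With Csf1r and Adgre1 only it was 3.12% and 21.3 CPM. In iKO samples 2 to 4 it was 16.7 to 20.2 CPM of 109 to 158 CPM by the 6 markers and 13.8 to 32.4 CPM by those 2, and without sample 1 the log2 difference of Zbp1 was 2.62 (edgeR adjusted p = 3.31e-06). Without control sample 3, the highest control value, it was 3.40 (adjusted p = 1.17e-05).

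Among CD4 T cells 3 of the 6 members that passed the filter rose, against 1.59% of 5273 genes called higher and 2.41% in either direction. Ifih1 and Ddx60 needed their iKO samples to pass that filter, so their calls are not independent of it. Zbp1 had 319, 378, 175 and 146 CPM in iKO and 141, 58.2, 62.1 and 58.4 CPM in control samples, and rose 3.07-fold (log2 1.62 ± 0.32, adjusted p = 0.0120). Control sample 1 lay just under the lowest iKO sample. Ifih1 rose from 23.2 ± 6.86 to 70.8 ± 30.2 CPM (log2 1.503 ± 0.30, adjusted p = 0.0132) and Ddx60 from 24.4 ± 8.55 to 75.9 ± 34.7 CPM (log2 1.70 ± 0.34, adjusted p = 0.0120). Groups did not overlap for these 3 genes and for Ddx58 (log2 0.83 ± 0.22, adjusted p = 0.0707), against 4.51% of all genes. Dhx58 (log2 1.59 ± 0.56, adjusted p = 0.190) and Eif2ak2 (log2 0.68 ± 0.41, adjusted p = 0.502) overlapped. No member was called in this type without iKO samples 1 and 2 (adjusted p from 0.269, Zbp1 at log2 0.94), without iKO sample 2 alone, or without control sample 3 alone; without control sample 2 alone the call of Zbp1 ended.

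Treg gave a like picture with fewer samples (4 iKO and 3 control, since control sample 4 had under 20 cells). Of 6 members tested 3 rose, against 0.588% of 6974 genes called higher and 1.35% in either direction. Ddx60 needed its iKO samples to pass the low-count filter, so its call is not independent of it. Zbp1 had 438, 394, 231 and 158 CPM in iKO and 141, 93.2 and 84.9 CPM in control samples (log2 1.52 ± 0.32, adjusted p = 0.0408). Ddx60 had 78.0, 69.0, 27.4 and 31.9 CPM against 21.4, 8.60 and 11.9 CPM (log2 2.03 ± 0.43, adjusted p = 0.0415). Ifih1 had 61.2, 57.5, 41.1 and 37.2 CPM against 26.7, 20.1 and 19.2 CPM (log2 1.19 ± 0.27, adjusted p = 0.0445), and its call ended with the sample number as a block (adjusted p = 0.0546), with DESeq2 (0.0866) and without removal by doublet score (0.0703). These 3 genes and Ddx58 (log2 1.16 ± 0.31, adjusted p = 0.0931) did not overlap, against 7.83% of all genes. Each of the 3 calls ended without iKO sample 1, without iKO sample 2, or without control sample 2 or 3, and Ifih1 also without iKO sample 3. Of all genes, 94 were called in the main fit, 14 without iKO sample 1, 16 without iKO sample 2 and 11 without control sample 2 or 3. Without control sample 1 the count of members was 5, where 110 of 7497 genes were called higher. Treg fits without a control sample hold fewer than the 3 control samples otherwise required. Without iKO samples 1 and 2 together none was called (adjusted p from 0.332), with Zbp1 at log2 0.84 and Ddx60 at 1.14. With cells thinned to 3000 UMIs Ddx60 stood at 2.88 (edgeR adjusted p = 0.0129). In the profiles behind these values macrophage markers reached up to 8.20% of their macrophage level in iKO Treg.

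Mature DC, the Ccr7-bearing migratory state of dendritic cells, had 1 member called of 6 tested, against 0.699% of 5720 genes called higher. Zbp1 had 292, 248, 96.6 and 87.7 CPM in iKO and 62.2, 50.6, 17.6 and 42.1 CPM in control samples, and rose 4.31-fold (log2 2.11 ± 0.41, adjusted p = 0.0351). Ddx58, Ifih1, Dhx58, Eif2ak2 and Ddx60 had log2 differences of 1.02 to 1.90 with adjusted p from 0.0707 to 0.115. With the sample number as a block 5 members were called: Zbp1 (adjusted p = 0.00022), Dhx58 (0.00644), Ifih1 (0.0127), Ddx58 (0.0229) and Ddx60 (0.0438). Calls over all genes rose too, with 126 of 5720 genes called higher, against 40 without the block. Groups did not overlap for Zbp1, Ddx58 and Ifih1, against 3.04% of all genes. The call of Zbp1 ended without any of iKO samples 1 and 2 and control samples 2, 3 and 4, and without iKO samples 1 and 2 together it stood at log2 1.19 (adjusted p = 0.218). Without iKO sample 4, in contrast, all 6 members tested were called, where 131 of 5717 genes were called higher.

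**Figure D3:**
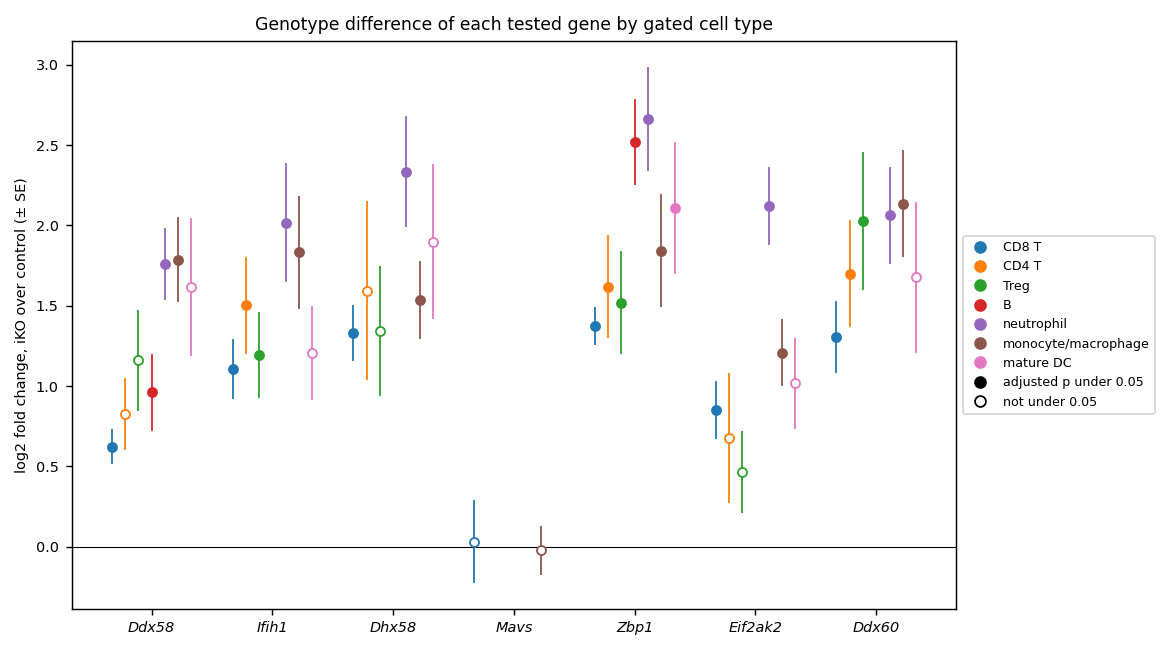
Log2 fold change of each member, iKO over control, with its standard error, in each gated type where the gene passed the low-count filter. Filled points have an edgeR adjusted p under 0.05 over all genes of the type; Mavs lies at 0 in both types tested, and Zbp1 is filled in all 7.

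In types with too few samples to test, the values were as follows. Zbp1 in cDC1 was 285, 361, 174 and 89.5 CPM in iKO samples and 51.1 and 30.2 CPM in control samples 3 and 4. Ddx58 in those cDC1 profiles was 10.5, 16.5, 15.2 and 10.7 CPM in iKO, at levels that would be the lowest of any type but pDC. The control samples had 1.16 and 0 CPM of it, from 1 and 0 UMIs. In NK cells Ddx58 was 68.3 and 67.9 CPM in the 2 iKO samples and 98.5 CPM in the 1 control sample, and Zbp1 was 132 and 147 against 82.9 CPM. In cDC2 the 1 iKO sample had 109 CPM of Zbp1 and the control samples 19.3 to 70.6 CPM. In pDC Zbp1 was 29.3 to 69.0 CPM in 3 iKO samples and 29.0 CPM in 1 control sample.

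Summed over all kept cells of a sample, 6 of 7 members were called higher, against 1.72% of 13460 genes. Their groups did not overlap, against 8.4% of all genes, with log2 differences of 1.05 to 1.67 and Mavs at 0.03 ± 0.14 (edgeR adjusted p = 0.911). Without iKO samples 1 and 2 the count was 4. In such whole-sample sums, fewer cells of a type and less RNA per cell cannot be told apart, and CD8 T cells, for example, made up 11.1% to 42.6% of iKO and 5.88% to 22.1% of control cells.

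Whether the genotype difference itself differed between types was tested in 1 model with the sample as a block. For monocytes/macrophages against CD8 T cells, B cells and neutrophils, edgeR called 0 of 21 member differences (background 0.0903%, 0.821% and 0.388% of genes called), and 5 had an unadjusted p under 0.05. The log2 difference of Ddx58 was 1.12 ± 0.29 larger in monocytes/macrophages than in CD8 T cells (edgeR adjusted p = 0.163). The genotype differences of Zbp1 (-0.91 ± 0.30, edgeR adjusted p = 0.296), Eif2ak2 (-0.93 ± 0.30, adjusted p = 0.264) and Dhx58 (-0.89 ± 0.41, adjusted p = 0.498) were smaller in monocytes/macrophages than in neutrophils, and that of Zbp1 was smaller than in B cells (-0.95 ± 0.38, adjusted p = 0.416; without control sample 3 it was -1.92). After adjustment over all genes none of the members' differences between types was resolved.

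Counted per cell, more iKO cells had a UMI of Zbp1 in the types given here. Pooled over the cells of all samples of a group, cells with a UMI also held more of them on average. That pooled mean weighs larger samples more and has no spread over samples. At an equal depth of 3000 UMIs per cell, Zbp1 was seen in 64.8% ± 16.5 of iKO and 27.2% ± 5.25 of control monocytes/macrophages (91.0% and 62.1% unthinned), with 2.37 and 1.502 UMIs per positive cell. In neutrophils it was seen in 49.3% ± 11.5 against 12.5% ± 5.62 (64.0% and 16.2% unthinned; 2.19 and 1.57 UMIs per positive cell), in CD8 T cells in 36.6% ± 3.65 against 17.8% ± 2.73 (73.5% and 43.9%), and in B cells in 21.7% ± 7.81 against 4.06% ± 2.0 (31.9% and 5.40%). Zbp1 ranges over samples did not overlap in any of these 4 types. The share of all genes without overlap was not computed for this measure. Other members overlapped in some types, such as Dhx58 in neutrophils. No gated type is known to lack Zbp1, so no background type was available for it. As a low reference, Zbp1 was seen in 9.52% of cells of the 1 control pDC sample and in 8.33% ± 2.89 of iKO pDC at that depth, and the 4.06% of control B cells was no higher. The median depth before thinning was 10638 UMIs in that pDC sample and 3530 to 3977 UMIs in control B cells. Leaving out shallower cells removed 389 iKO and 840 control cells. Mavs was seen in 2.29% ± 0.314 of iKO and 2.35% ± 0.783 of control monocytes/macrophages.

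**Figure D4:**
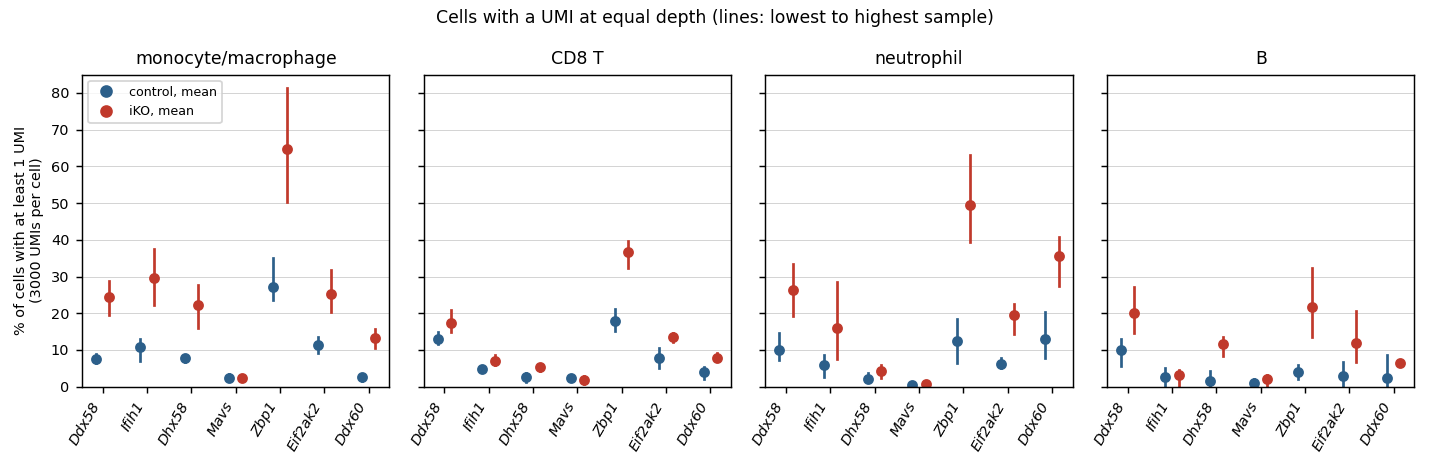
Share of cells with at least 1 UMI of each member after thinning to 3000 UMIs per cell, in 4 gated types. Points are means over 4 samples per group and lines run from the lowest to the highest sample. Zbp1 ranges of iKO and control do not overlap in any of the 4 types, and Mavs shares are alike in monocytes/macrophages. The share of all genes without overlap was not computed for this measure.

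Monocytes/macrophages were also divided by detection of Arg1, an arginase gene of suppressive macrophages, and of the interferon-induced chemokine genes Cxcl9 or Cxcl10, to see whether the sensors were restricted to one state. In iKO samples Zbp1 was 323 ± 156 CPM in cells with Arg1 only, 527 ± 228 with Cxcl9 or Cxcl10 only, 424 ± 206 with both and 374 ± 134 with neither (n = 4 each). In control samples the same order held, with 95.9 ± 25.9, 191 ± 31.2, 146 ± 42.0 and 116 ± 22.8 CPM. For Zbp1, Ddx58, Dhx58, Eif2ak2 and Ddx60 the chemokine-only cells had higher means than the Arg1-only cells in both groups, and so they did for Ifih1 (171 ± 67.5 against 73.2 ± 24.4 CPM in iKO, 59.5 ± 14.9 against 28.0 ± 10.1 CPM in control). Mavs means were also higher in chemokine-only cells (8.21 ± 2.16 against 5.87 ± 2.98 CPM in iKO, 7.84 ± 1.91 against 4.85 ± 2.76 CPM in control). The states differed in size, with 58.8% of iKO but 22.2% of control cells of the gate being chemokine-only and 6.35% against 28.8% being Arg1-only. These state levels were not tested, and deeper cells are more often positive for a marker.

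Partners of the sensors were taken from 4 lists of pathway genes. Of the ubiquitin ligases, kinases and factors between the RIG-I-like receptors and interferon genes, 4 of 21 tested rose in monocytes/macrophages and 0 fell, where 5.84% of all genes were called higher (median log2 0.29, against -0.00 for all genes). Irf7, the interferon-induced transcription factor of that pathway, went from 111 ± 41.6 to 821 ± 345 CPM (log2 2.89 ± 0.40, edgeR adjusted p = 0.00654). Rnf135 (Riplet, a ubiquitin ligase of RIG-I) had a log2 difference of 1.25 ± 0.24 (adjusted p = 0.0166) and the kinase gene Ikbke 0.74 ± 0.13 (adjusted p = 0.0114). Irf3, the constitutive factor, was at 24.4 ± 1.05 against 21.0 ± 2.42 CPM (edgeR adjusted p = 0.279). In CD8 T cells, where 1.91% of all genes were called higher, 2 of 20 tested rose, Irf7 (log2 2.21 ± 0.17, adjusted p = 0.000354) and the RIG-I ubiquitin ligase gene Trim25 (log2 0.64 ± 0.13, adjusted p = 0.0313), and Irf3 did not pass (log2 -0.13 ± 0.11, adjusted p = 0.563). Irf7 was called in all 7 types tested and was the only call of this list in CD4 T cells, Treg, B cells, neutrophils and mature DC.

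Of the ZBP1 partners and cell death genes, 4 of 13 rose and 1 fell in monocytes/macrophages (median log2 0.40), against 5.84% of all genes called higher and 10.8% in either direction. Mlkl, the pore-forming effector of necroptosis, went from 10.3 ± 2.03 to 25.97 ± 10.7 CPM (log2 1.31 ± 0.32, edgeR adjusted p = 0.0335). Adar, which edits double-stranded RNA and shares the Z-nucleic-acid binding domain with ZBP1, went from 22.7 ± 5.16 to 49.4 ± 11.04 CPM (log2 1.12 ± 0.22, adjusted p = 0.0162). Casp1 (log2 0.97 ± 0.27, adjusted p = 0.0478) and Casp8 (log2 0.48 ± 0.11, adjusted p = 0.0289) also rose, and Casp6 fell (log2 -0.77 ± 0.14, adjusted p = 0.0149). Ripk3, the kinase that ZBP1 engages, was at 53.1 ± 2.10 against 41.3 ± 5.07 CPM (log2 0.32 ± 0.11, adjusted p = 0.0930). In CD8 T cells it was Ripk3 (log2 0.74 ± 0.15, edgeR adjusted p = 0.0293) and Casp8 (log2 0.46 ± 0.10, adjusted p = 0.0449) that rose, 2 of 12 tested (median log2 0.32) against 1.91% of all genes, while Adar (log2 0.45 ± 0.13, adjusted p = 0.113) and Mlkl (log2 0.42 ± 0.30, adjusted p = 0.501) did not pass. Casp1 was the 1 gene of this list called in neutrophils (log2 1.74 ± 0.27, edgeR adjusted p = 0.00256), and none was called in CD4 T cells, Treg, B cells or mature DC.

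None of the PKR regulators and integrated stress response genes was called in any of the 7 types, with 20 tested in monocytes/macrophages (median log2 -0.04) and 19 in CD8 T cells (median log2 0.06). Of all genes, 0.997% to 10.8% were called in either direction in these types. Of the endosomal and other RNA sensors 6 of 19 rose in monocytes/macrophages (median log2 0.20), against 5.84% of all genes. Tlr3, the endosomal receptor of double-stranded RNA, went from 3.39 ± 0.992 to 8.50 ± 2.65 CPM (log2 1.39 ± 0.31, edgeR adjusted p = 0.0245), and Tlr7, the receptor of single-stranded RNA, from 28.8 ± 5.48 to 47.5 ± 5.36 CPM (log2 0.71 ± 0.16, adjusted p = 0.0230). The adaptor gene Myd88 (log2 0.88 ± 0.17, adjusted p = 0.0172) and the zinc finger antiviral protein gene Zc3hav1 (log2 0.81 ± 0.16, adjusted p = 0.0166) completed the leading calls. None of 15 tested was called in CD8 T cells (median log2 0.03; 1.91% of all genes were called higher), where Tlr3 and Tlr7 did not pass the low-count filter, nor was any in the other 5 types.

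Most of these list calls ended without iKO samples 1 and 2. In monocytes/macrophages Irf7 alone was then called of the 4 lists, and likewise in CD8 T cells, CD4 T cells and B cells. In neutrophils Irf7, Casp1 and Myd88 were called, and in Treg and mature DC no list gene was.

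**Figure D5:**
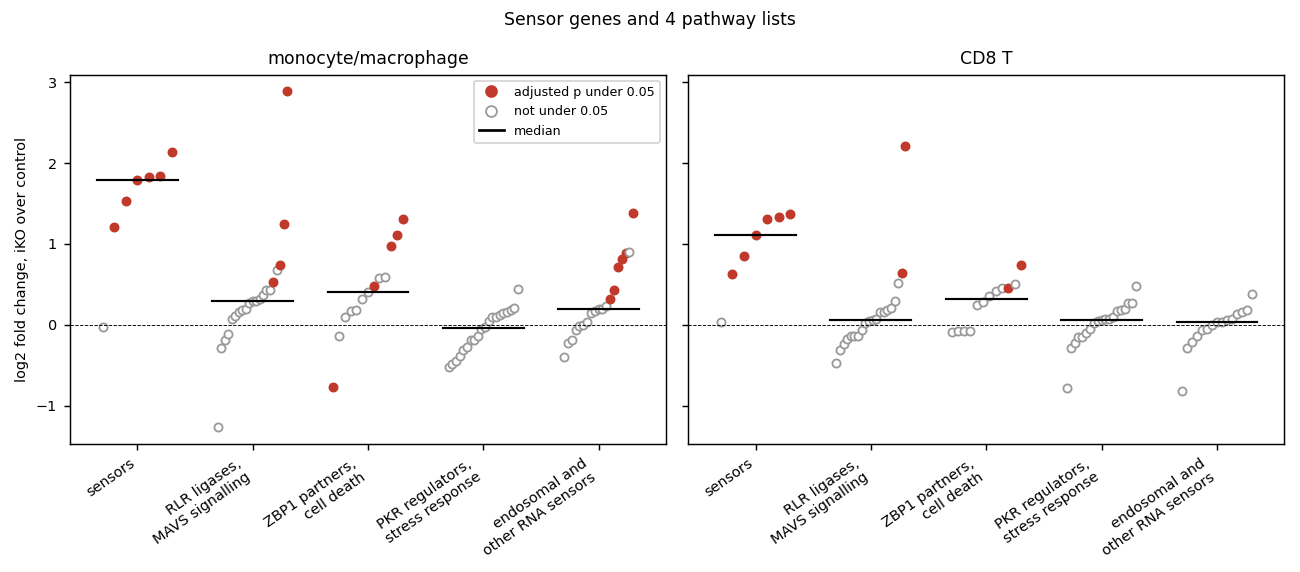
Log2 fold change (iKO over control) of the 7 members and of the tested genes of 4 pathway lists in monocytes/macrophages and CD8 T cells; each point is a gene, filled where the edgeR adjusted p is under 0.05, and bars are medians. The members' medians are 1.79 and 1.11, and the stress response list has no filled point in either type.

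Genes with the most similar pattern were sought over the 17 combinations of type and genotype with at least 3 samples, among 5048 genes, by Pearson correlation of mean log2(CPM + 1), given as a description since the combinations share samples and pools. Zbp1 was closest to Oas1a (0.909), Ifit2 (0.899) and Eif2ak2 (0.885). Eif2ak2 was in turn closest to Zbp1, Oas1a (0.865) and Dhx58 (0.806), and Dhx58 to Ifit2 (0.877), Parp12 (0.865) and Rnf213 (0.850). Ddx58 was closest to Ifi206 (0.885), Gbp7 (0.876) and Ifi208 (0.873), Ifih1 to Ripk1 (0.885), Oas1a (0.861) and Chmp2a (0.859), and Ddx60 to Parp10 (0.916), Slfn1 (0.907) and Rtp4 (0.890). Mavs was closest to Dhps (0.916), Cops8 (0.890) and Ehmt2 (0.886), none of which was among the 3 nearest genes of another member. Oas1a, an antiviral oligoadenylate synthetase gene, was thus among the 3 nearest genes of 3 members.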

How the data were processed

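Per the file headers and the submitters' processing notes, the deposited counts are raw UMI counts per gene and cell barcode from Cell Ranger 7.1.0 with the GRCm39 build; annotation, intron setting and hashtag rule: not given in the sources used here. Cells with at least 300 genes, at most 10% mitochondrial UMIs and a Scrublet doublet score (scanpy 1.11.5) of at most 0.25 were kept; the score removed 1.95% of scored cells. No deposited annotation was used, so a type's name means cells that passed its gate (at least 3 markers, a margin of 0.2 in the share of markers detected). Counts were summed per sample and type where at least 20 cells were present, and tested in types with at least 3 samples per group with edgeR 4.0.16 (R 4.3.3; quasi-likelihood, TMM, filterByExpr, no block), Benjamini-Hochberg adjusted over all genes tested. CPM used each profile's own total. SE is the absolute log2 fold change over the square root of F. The steps were tested on simulated data, recovering 85.5% to 95.5% of 200 genes changed 4-fold. Of the genes called there, 1.685% (all cells) to 6.316% (Treg) had not been changed. Smaller changes, such as those of many members, were not simulated.

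Alternatives were DESeq2 1.42.0, its size factors in edgeR, no low-count filter, the sample number as a block, each sample left out, at least 4 markers, cells thinned to 3000 UMIs (1500 for shares), and no removal by doublet score. Fits with samples left out could hold fewer than 3 samples in a group. Samples with the same number deviated together (correlations 0.565, 0.277, 0.121 and 0.609), so blocked values are given where they change a call, while the main test has no block. iKO sample 2 correlated more with control sample 1 (0.644) and iKO sample 3 more with control sample 4 (0.450) than with their own numbers. The members and pathway lists were chosen with earlier results of these data known. Of each list the 3 called genes with the largest change in monocytes/macrophages and CD8 T cells, and Tlr3, Tlr7, Adar, Ripk3, Mlkl, Irf3 and Irf7, were named; Casp6, Casp8 in monocytes/macrophages and Casp1 in neutrophils were added after their values were seen. A level at a count of 0 is given with the limit that 3 counts set, which covers counting error only. The carried share with Csf1r and Adgre1 only, and list counts without iKO samples 1 and 2, were added after seeing the data. One comparison with another marker set is not reported here.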

Additional observations from a re-analysis of the deposited data

Results flagged for a closer look

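Of 112 groups of 4 samples examined (7 genes, 2 genotypes and the types with 4 samples), 8 held a sample far from the other 3, where chance flags about 1 in 20. Zbp1 over all cells of control sample 1 was 124 CPM while the remaining controls lay at 87.8 to 92.4, and in CD4 T cells of the same sample at 141 CPM, against 58.2 to 62.1. Zbp1 in B cells of control sample 3 was 25.2 CPM, against 9.81 to 12.2. Ddx58 was 53.2 CPM in neutrophils of control sample 2, against 35.3 to 36.4, and 17.5 CPM in monocytes/macrophages of control sample 4, against 30.3 to 32.4. Ddx60 over all cells of control sample 4 was 7.94 CPM, against 15.02 to 16.5. Eif2ak2 in CD8 T cells of iKO sample 3 was 38.0 CPM, against 50.7 to 53.2 in the other iKO samples. Mavs in mature DC of control sample 1 was 0 CPM (upper limit 8.11), against 7.65 to 8.79.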

How the results depend on the processing

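Of 663 fold changes recomputed under an alternative, 567 kept their direction and their side of the threshold, 60 lost the call, 26 gained one and 10 changed sign, all 10 of them for Mavs. Leaving out 1 sample gave -0.10 to 0.26 for Mavs in CD8 T cells and -0.11 to 0.13 in monocytes/macrophages, where it was 0.024 without the low-count filter, 0.0051 with the sample number as a block and 0.0918 without iKO samples 1 and 2. With cells thinned to 3000 UMIs the members called fell to 1 in CD8 T cells and 0 in B cells, where none passed the filter. With no low-count filter they were 5 in CD4 T cells, 5 in Treg, 4 in B cells and 6 in mature DC. DESeq2 called 1 in B cells and 4 in mature DC. Without iKO samples 1 and 2 the count was 0 in CD4 T cells, Treg and mature DC. With 1 sample left out it ran from 3 to 6 in CD8 T cells, 0 to 4 in CD4 T cells, 0 to 5 in Treg, 1 to 2 in B cells, 4 to 6 in monocytes/macrophages and 0 to 6 in mature DC, and stayed at 6 in neutrophils and all cells. The sample number as a block gave 5 in mature DC, ended the call of Ifih1 in Treg, and changed no other call that was made without it. The cause of these shifts was not tested.

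Counts of all genes called differed by over 1.5 times as follows. Over all cells, 348 became 1380 with DESeq2, 683 with the block, 726 thinned and 82 without iKO samples 1 and 2 (110 to 490 with 1 sample left out). In CD8 T cells, 301 became 465 with DESeq2, 742 with the block and 117 thinned (138 to 315). In CD4 T cells, 127 became 285 unfiltered and 27 without iKO samples 1 and 2 (60 to 170). In Treg, 94 became 351 and 8 (11 to 199), and in B cells 94 became 173 unfiltered. In neutrophils, 176 became 384 unfiltered, 302 with the block, 109 thinned and 284 without iKO samples 1 and 2 (100 to 263). In monocytes/macrophages, 1259 became 2001 with DESeq2 and 209 without those samples (395 to 1557). In mature DC, 57 became 94 with DESeq2, 403 unfiltered, 163 with the block, 36 thinned and 10 without those samples (8 to 168). At 1500 UMIs per cell Zbp1 was seen in 45.8% of iKO and 16.1% of control monocytes/macrophages.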
